A study of Mus musculus with 2 samples.

Results

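Plasma cells, the antibody-secreting end stage of the B lineage, were selected on measured transcripts from the immune cells of 1 mouse lung adenocarcinoma library. A barcode was a member when it carried at least 2 UMI (unique molecular identifiers, counted transcripts) of Derl3 and Tnfrsf17 together, at least 3 UMI of Mzb1 and at most 1 UMI of the T cell receptor chains Cd3d, Cd3e and Cd3g together, within the class the authors deposited as Immune. The rule gave 435 members, or 5.85% (5.33 to 6.41%) of the 7438 immune barcodes among the 11432 barcodes of the CD45-positive library. The whole series held 15389 barcodes.

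Tumours were cut from lungs of C57BL/6 mice, and magnetic beads parted the dissociated cells by CD45, the surface phosphatase of leukocytes, into a CD45-positive and a CD45-negative fraction, each run as 1 droplet library of 3' transcript ends. No treatment or allele is given for either fraction, and the cell labels carry the unexplained name LucOS. The labels used here state neither how many mice were pooled nor their age or tumour model. The sort sets the denominator of each share, and 22 of the 108 immune barcodes of the CD45-negative library (20.4%, 13.2 to 29.2%) met the same rule. With 1 library per fraction there was no replicate and no test, so all intervals are 95% intervals of counting error only (exact Poisson for levels, exact Clopper-Pearson for shares, exact conditional binomial for ratios).

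A plasma cell is a secretory factory. The transcription factor Blimp-1 (Prdm1) closes the B cell program, IRF4 drives the change of state, and XBP1, made active by the endoplasmic reticulum (ER) stress sensor IRE1, enlarges the ER that folds and exports immunoglobulin. The J chain (Jchain) joins the monomers of IgA and IgM into polymers that the epithelial receptor encoded by Pigr carries into the airway lining fluid. Plasma cells then depend on outside signals such as APRIL and BAFF, which bind BCMA (Tnfrsf17) and TACI (Tnfrsf13b). None of the 13 immunoglobulin chain genes looked for is in the table used here, so the class of antibody these cells made was not analysed.

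Members had a median depth of 4013 UMI (2234 to 12605) and 1249 genes. They were set against a B group of 604 immune barcodes with at least 2 UMI of a short set of B cell genes, Ms4a1 and Cd79b among them, and the same Cd3 limit (median 2990.5 UMI), and against the other 6399 immune barcodes (median 3163 UMI). A T cell reference of 3025 of those barcodes, with at least 3 UMI of the Cd3 genes and at most 1 of Mzb1, served to show the level of free RNA. The library carried plasma transcripts in many barcodes: after thinning each cell to 2000 UMI, Jchain had a UMI in 68.4% of the T cell reference and in 67.8% of the alveolar type 2 barcodes, so a UMI of Jchain alone did not mark a plasma cell. Of the B group, 297 barcodes (49.2%) held over 1 UMI of Mzb1 or over 0.5% of their UMI in Jchain, as did 1098 (17.2%) of the other immune barcodes. Ratios are therefore also given for 376 members over 177 B barcodes below both limits, in both cases without the mixed barcodes defined in the next paragraph, and this is called the clean comparison. These limits leave out barcodes by Mzb1 and Jchain, so they can raise the ratios of both genes and of genes found with them.

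Other lineages were present in some members. Over 5 UMI of any of 9 lineage marker lists, or over 1% of UMI in surfactant and haemoglobin genes, were found in 59 members (13.6%), 17 of them by alveolar macrophage and 15 by T cell genes, and these are called mixed. The other 3 of the 12 lists were left out of that rule. Of these, the neutrophil list exceeded 5 UMI in 76 members (median 2 UMI), the plasmacytoid dendritic cell list in 116 (median 4) and the alveolar epithelium list in 355 (median 9). The alveolar epithelium list summed to 2631 CPM in members and 2228 CPM in the T cell reference. The B group held more of most lists, with alveolar macrophage genes at 1493 CPM against 440 CPM in members. C1q macrophage genes stood at 1343 against 220 CPM and erythroid genes at 1382 against 432 CPM. The plasmacytoid dendritic cell, alveolar epithelium, and mesothelium and fibroblast lists were higher in members. Plasmacytoid dendritic cells share secretory genes with plasma cells, but their marker Siglech had 2 UMI in all members together. 4 members shared a barcode sequence with the other library. No doublet caller was used, and the part of free RNA and doublets in the values was not tested.

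The selecting genes describe the members and support nothing further. Derl3, an ER membrane protein that pulls misfolded proteins out for degradation, had 696 CPM (659 to 735), where CPM is the summed UMI per 1000000. Tnfrsf17, the APRIL receptor, had 309.9 CPM (285 to 336) and Mzb1, an ER cochaperone of immunoglobulin assembly, 5653 CPM (5546 to 5762). In the B group they stood at 22 CPM, 10.8 CPM and 959.6 CPM. Derl3 had a UMI in 406 members, Tnfrsf17 in 273 and both in 244. Members at the lower limit of 2 UMI of the pair (113) had a median J chain share of 14.2% of UMI, and the 137 barcodes with 1 UMI that met the other limits had 9.68%, while 262 with 0 UMI had 0.126%. The Mzb1 limit lay in a thin stretch, with 6 members at 3 UMI and 2 barcodes at 2 UMI. The Cd3 limit kept out 256 barcodes that met both other limits. Their median J chain share was 6.89%, against 10.8% in members, at a median of 4 Cd3 UMI.

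Jchain, on chromosome 5 (GRCm38.p6, chr5:88519809-88527897), took a median of 10.8% of a member's UMI, from 0.479% in the lowest member to 36.5% in the highest. The median was 0.0631% in the B group, 0.0496% in the T cell reference and 5.48% in the 22 CD45-negative members. Summed over cells, Jchain stood at 112428 CPM (111948 to 112910) in members and 16239.9 CPM in the B group, a ratio of 6.92-fold. In the clean comparison it was 209.6-fold, but the B barcodes there were chosen for a low share of Jchain, so that value is not a result. The distributions overlapped: 81 of the 604 B group barcodes (13.4%, 10.8 to 16.4%) had at least 1% of their UMI in Jchain and together held 96.2% of the Jchain UMI of that group. Leaving Jchain out of the totals moves every log2 ratio of members over the B group up by 0.15.

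**Figure D1:**
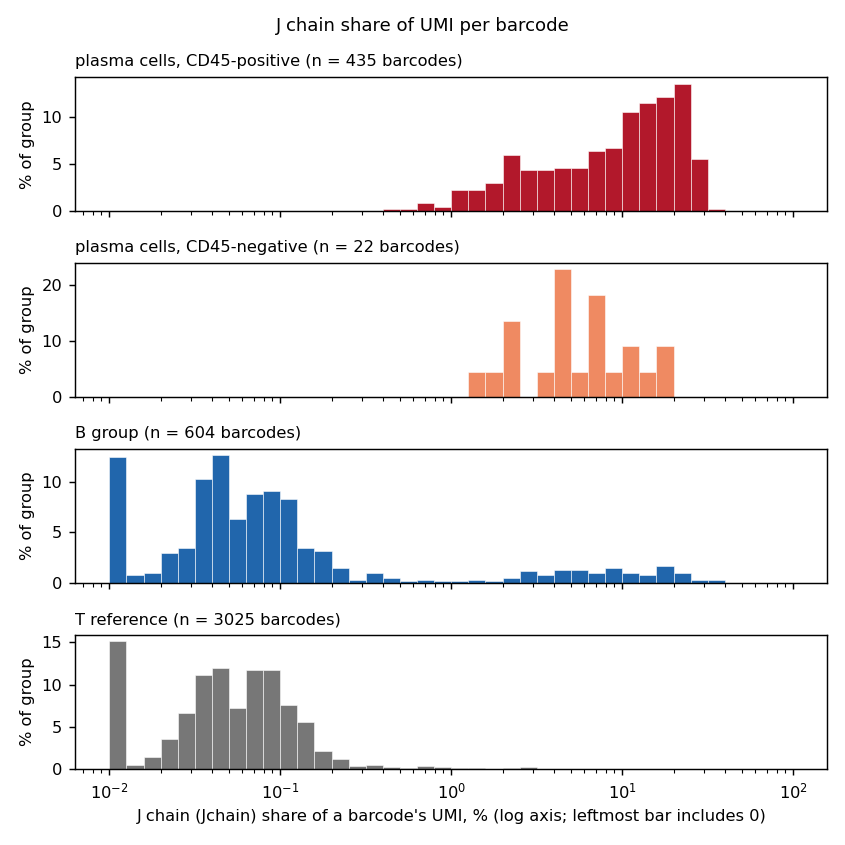
Share of UMI in Jchain per barcode (x axis, %, log scale) as the percent of each group (y axis) for plasma cells of both libraries, the B group and the T cell reference. Most members lie between 1% and 36.5%, the T cell reference near its median of 0.0496%, and the B group shows a main peak near 0.0631% with a tail into the plasma cell range.

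Most genes of plasma cell identity were higher in members. Of 24 such genes with at least 50 UMI over both groups, 19 were at least 2-fold higher in members and 1 was at least 2-fold lower, with a median log2 ratio of 2.02. Besides transcription factors and surface proteins, this list holds ER genes such as Fkbp11, Txndc5, Sec11c and Lman1. The ER lists below count such genes again, so the lists are not separate. Of all 5737 genes compared, 411 (7.16%) were at least 2-fold higher and 709 (12.4%) at least 2-fold lower, with a median of -0.21. With Jchain left out of the totals these counts were 501 and 539. Fkbp11, an ER prolyl isomerase found in secretory tissue, had the highest ratio outside the selecting genes among genes with at least 200 UMI, with 314 CPM (289 to 340.1) in members against 19.6 CPM (14.2 to 26.5) in the B group, or 16-fold (11.7 to 22.4). Xbp1, the driver of the secretory program, stood at 1523 CPM (1468 to 1580.0) against 311 CPM, or 4.9-fold (4.5 to 5.34). Sdc1, the syndecan known as CD138, was 5.7-fold (4.39 to 7.52) higher, and the elongation factor Ell2, which favours the secreted form of immunoglobulin heavy chain, 3.51-fold (2.8 to 4.44) higher.

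With the B barcodes that held plasma transcripts left out, the ratios were larger. In the clean comparison the ratio was 25.5-fold (18.1 to 37.1) for Xbp1, 53.6-fold (14.7 to 444) for Sdc1 and 172-fold (30.8 to 6824) for Fkbp11. Prdm1 was 2.4-fold (1.84 to 3.15) higher in the main comparison and 6.44-fold in the clean one, and Irf4 2.45-fold (1.92 to 3.16) and 3.62-fold. Both factors were sparse, with 174 and 208 UMI over 435 members. The coactivator Pou2af1, which works with Oct factors at immunoglobulin promoters, was 2.45-fold higher, and the SLAM family receptor Slamf7 4.07-fold. Cd9, a tetraspanin, was the identity gene at least 2-fold lower (2.42-fold), and the costimulatory receptor Cd27 stood at 0.637-fold the level in the B group.

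Nearly all ER stress genes compared were higher in members. Of 19 targets of the IRE1 and ATF6 branches compared, 18 were at least 2-fold higher in members and 0 at least 2-fold lower, with a median log2 ratio of 2.17 against -0.21 for all genes. The clean comparison gave 19 of 19 and a median of 3.25, where 15.3% of 3543 genes were at least 2-fold higher. Creld2, an ER isomerase-like protein, had 873 CPM (832 to 917) against 89.3 CPM (77.1 to 103), or 9.78-fold (8.41 to 11.4). Hsp90b1, the ER member of the Hsp90 chaperones, had 3045 CPM (2966 to 3125) against 445 CPM, or 6.85-fold (6.39 to 7.34). Hspa5, the chaperone BiP that binds free immunoglobulin heavy chain, had 1159 CPM (1110.3 to 1208) against 245 CPM, or 4.73-fold (4.3 to 5.21). Derl2, a relative of Derl3, was the exception, at 1.57-fold.

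The PERK and ATF4 branch, which curbs translation and turns on amino acid supply and cell death genes, differed from that picture. Of its 10 genes compared, 2 were at least 2-fold higher, 1 was at least 2-fold lower and the median log2 ratio was 0.21. Asns, asparagine synthetase, was 5.32-fold (3.12 to 9.58) higher and Atf5 3.89-fold (2.65 to 5.85). Atf4 itself was at 1.96-fold (1.68 to 2.29) and Ddit3, the death factor CHOP, at 1.09-fold (0.804 to 1.49). Atf3 was 2.22-fold lower. The difference between the branches was not tested, since single cells of 1 library give no replicate.

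Promoter windows of RefSeq (GRCm38.p6, 250 bases before to 50 after a start) were searched on both strands for the letters that ATF6 and XBP1 are known to bind: the ER stress element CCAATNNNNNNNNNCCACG, its second form ATTGGNCCACG and the element TGACGTGG. Of the genes whose windows hold the first or second element, 6 are shown as examples: Hspa5, Hsp90b1, Creld2 and Herpud1 of the IRE1 and ATF6 list, Dnajc3 of the folding list and the selecting gene Derl3. The windows of Calr, Pdia6, Syvn1, Krtcap2, Dnajb11 and Canx also hold an element of either form. The ratio of Canx is given below with the folding genes. The first element stood in 39 of 32851 windows (0.119%) overall and in 5 of 17 windows (29.4%) of the IRE1 and ATF6 list, for 15 of its 20 genes that matched. That list was made of known targets of these branches, so its share is not a result about these cells. The first element stood in 4 of 28 folding windows (14.3%), 1 of 14 windows of ER-associated degradation (7.14%) and 1 of 26 plasma cell windows (3.85%). It stood in 0 of 17 translocation, 0 of 13 oligosaccharyl transferase, 0 of 32 ER to Golgi, 0 of 16 PERK and ATF4, 0 of 8 MHC class II and 0 of 23 B cell windows. The second form stood in 12 windows overall (0.0365%) and in 2 of the 17 of the IRE1 and ATF6 list. It also stood in 1 oligosaccharyl transferase and 1 degradation window. TGACGTGG stood in 222 windows overall (0.676%), in 0 of the 17 IRE1 and ATF6 windows and in 5 of the 32 ER to Golgi windows. The degradation, folding and plasma cell lists had 2 such windows each. Capitals mark both ends, 5 bases long, of each match (CCAAT or ATTGG, and CCACG or CGTGG).
Hspa5: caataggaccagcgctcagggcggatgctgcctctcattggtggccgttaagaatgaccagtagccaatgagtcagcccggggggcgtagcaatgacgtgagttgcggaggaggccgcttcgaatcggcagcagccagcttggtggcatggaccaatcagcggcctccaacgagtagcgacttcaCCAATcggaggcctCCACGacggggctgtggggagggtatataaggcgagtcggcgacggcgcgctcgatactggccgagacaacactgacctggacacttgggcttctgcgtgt
Hsp90b1: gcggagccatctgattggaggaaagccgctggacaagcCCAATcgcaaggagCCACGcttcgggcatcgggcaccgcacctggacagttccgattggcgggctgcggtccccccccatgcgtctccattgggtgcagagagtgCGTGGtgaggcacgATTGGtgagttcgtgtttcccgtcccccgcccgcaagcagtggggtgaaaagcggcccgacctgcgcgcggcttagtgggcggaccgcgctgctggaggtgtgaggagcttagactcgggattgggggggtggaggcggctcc
Creld2: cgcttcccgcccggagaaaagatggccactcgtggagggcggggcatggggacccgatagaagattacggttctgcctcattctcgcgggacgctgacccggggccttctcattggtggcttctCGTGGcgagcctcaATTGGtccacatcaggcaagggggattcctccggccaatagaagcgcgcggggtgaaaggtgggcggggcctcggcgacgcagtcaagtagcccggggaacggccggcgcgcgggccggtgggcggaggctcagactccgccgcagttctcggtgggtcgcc
Derl3: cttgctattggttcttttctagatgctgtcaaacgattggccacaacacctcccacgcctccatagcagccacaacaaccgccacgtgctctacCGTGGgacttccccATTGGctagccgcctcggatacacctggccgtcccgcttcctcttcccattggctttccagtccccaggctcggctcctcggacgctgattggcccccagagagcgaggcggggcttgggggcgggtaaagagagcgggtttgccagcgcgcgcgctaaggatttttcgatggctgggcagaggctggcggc
Dnajc3: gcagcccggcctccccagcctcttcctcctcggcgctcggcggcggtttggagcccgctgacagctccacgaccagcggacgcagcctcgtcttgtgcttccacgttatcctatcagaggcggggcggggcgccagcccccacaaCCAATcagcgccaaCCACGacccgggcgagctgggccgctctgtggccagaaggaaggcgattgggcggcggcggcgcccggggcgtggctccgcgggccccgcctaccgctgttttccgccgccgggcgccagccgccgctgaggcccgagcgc
Herpud1: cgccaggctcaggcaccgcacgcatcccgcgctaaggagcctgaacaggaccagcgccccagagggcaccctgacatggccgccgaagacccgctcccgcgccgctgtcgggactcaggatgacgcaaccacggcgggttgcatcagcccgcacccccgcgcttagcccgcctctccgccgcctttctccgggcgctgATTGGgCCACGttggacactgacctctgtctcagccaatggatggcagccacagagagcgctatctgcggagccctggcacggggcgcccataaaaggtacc

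These windows lie at chr2:34771840-34772139, plus strand (Hspa5), chr10:86705395-86705694, minus strand (Hsp90b1), chr15:88819396-88819695, plus strand (Creld2), chr10:75893148-75893447, plus strand (Derl3), chr14:118937682-118937981, plus strand (Dnajc3) and chr8:94386179-94386478, plus strand (Herpud1). Hsp90b1 carries 2 copies of the first element and Herpud1 1 copy of the second, and the match in Hspa5 begins 65 bases before the start. A match describes letters in the window and shows no binding, and its absence elsewhere says nothing about the factor. Dnajc3, a cochaperone of BiP, was 5.84-fold (5.11 to 6.69) higher in members, and Herpud1, a ubiquitin-like ER membrane protein of the degradation complex, 4.32-fold (3.76 to 4.98).

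The path of a secretory protein could be followed from entry to export. For entry into the ER, 19 of 23 translocation genes were at least 2-fold higher and 0 at least 2-fold lower (median log2 ratio 1.56). Sec11c, a catalytic subunit of signal peptidase, had 3015 CPM (2936 to 3094) against 531 CPM, or 5.67-fold (5.32 to 6.05), while its sister subunit Sec11a was at 1.23-fold (1.03 to 1.47). Tram2, a translocon partner, was 5.29-fold higher and Ssr4, of the signal sequence receptor, 4.83-fold. For folding and disulfide bonds, 19 of 25 genes were at least 2-fold higher and 1, the sulfhydryl oxidase Qsox1 (2.03-fold lower), at least 2-fold lower (median 1.67). Txndc5, a disulfide isomerase, was 6.51-fold (5.95 to 7.13) higher, Pdia4 6.56-fold (5.64 to 7.66) and Prdx4, the ER peroxiredoxin, 4.72-fold. The lectin chaperone Canx was at 1.3-fold, and Uggt1, the glycoprotein folding sensor, at 0.799-fold.

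Glycan transfer, disposal and transport genes were higher as groups too. Of 12 oligosaccharyl transferase genes 10 were at least 2-fold higher (median 1.36). Its 2 catalytic subunits parted: Stt3a, which acts at the translocon during synthesis, was 2.49-fold (1.93 to 3.21) higher, and Stt3b, which acts after it, was at 0.689-fold (0.536 to 0.882). Of 20 genes of ER-associated degradation 12 were at least 2-fold higher (median 1.48), led by the mannosidase-like Edem1 (6.2-fold) and Edem2 (5.98-fold) and by Sel1l (4.73-fold), the scaffold of the Hrd1 ligase. Of 32 genes of ER to Golgi transport 22 were at least 2-fold higher (median 1.22), among them the cargo receptor Lman1 (5.52-fold) and Sec24d (5.19-fold), a cargo adaptor of COPII vesicles. Coat genes of the return path were below 2-fold, with Copa at 1.66-fold, Copb1 at 1.2-fold and Copz1 at 1.45-fold. In these 3 lists 0 genes were at least 2-fold lower.

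**Figure D2:**
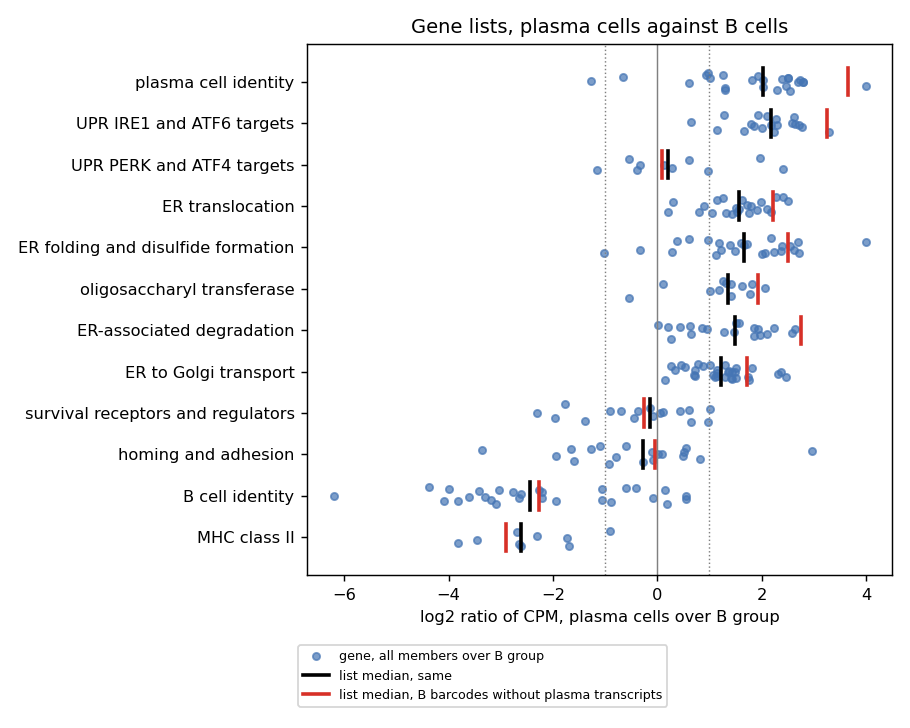
Log2 ratio of summed CPM, plasma cells over the B group (x axis), for each gene with at least 50 UMI (blue points) in 12 gene lists (rows). Black bars are list medians, red bars the medians of the clean comparison, and dotted lines mark 2-fold. The IRE1 and ATF6 list (median 2.17) and the plasma cell list (2.02) lie to the right, and the B cell (-2.44) and MHC class II (-2.62) lists to the left.

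B cell genes were lower, with exceptions at the antigen receptor. Of 28 B cell identity genes, 20 were at least 2-fold lower in members and 0 at least 2-fold higher (median log2 ratio -2.44). Without the list's genes that chose the B group, whose level there the choice raised, 18 of 25 were at least 2-fold lower and 0 at least 2-fold higher (median -2.27). Ms4a1, which encodes CD20, had 23.5 CPM (17.1 to 31.6) against 399.8 CPM (373 to 428), or 17-fold (12.5 to 23.5) lower, but it is among the genes that chose the B group. Bank1, a scaffold of B cell receptor signalling, did not choose it and was 20.7-fold (12.6 to 36.6) lower. Pax5, the factor that holds B cell identity, was 9.14-fold (4.92 to 18.8) lower, the inhibitory lectin Siglecg 15.9-fold and Ebf1 4.65-fold. Cxcr5, the receptor for follicles, had 1 UMI in members against 84 in the B group.

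Cd79a, the signalling chain of the B cell receptor, was at nearly the same level in both, with 1009 CPM (964 to 1056) and 1072 CPM (1029 to 1117). Cd79b, its partner and a selecting gene of the B group, was at 345 CPM against 639 CPM. In the T cell reference Cd79a stood at 127 CPM. Cd24a (1.46-fold), Fcrla (1.11-fold) and Ly6d (0.758-fold) also lay within 2-fold of the B group.

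Antigen presentation genes were lower as a set. Of 9 MHC class II genes 8 were at least 2-fold lower (median log2 ratio -2.62), and the ninth, the invariant chain Cd74, was 1.89-fold (1.84 to 1.93) lower. H2-Aa, the class II alpha chain, had 489 CPM (457 to 521) against 3138 CPM (3064 to 3214), or 6.42-fold (5.99 to 6.89). H2-DMb2, which loads peptide, was 14.1-fold lower. The level of H2-Aa in members was below that in the T cell reference (1083 CPM), cells that do not make it in the mouse. Ciita, the master regulator of these genes, had 7 UMI in members and 79 in the B group.

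Receptors for survival signals were mixed. Of 17 genes compared, 1 was at least 2-fold higher and 4 at least 2-fold lower, and the median log2 ratio of -0.15 was near that of all genes. Tnfrsf13b, the receptor TACI, had 135 CPM (119 to 153) against 88.4 CPM, or 1.53-fold (1.26 to 1.86). Tnfrsf13c, the BAFF receptor of mature B cells, was 1.87-fold (1.42 to 2.47) lower. Cd28, a costimulator that plasma cells carry, was 1.96-fold (1.6 to 2.41) higher, with the T cell reference higher still at 236 CPM. The BCL2 family member Mcl1, on which plasma cells depend, was at 0.943-fold (0.825 to 1.08). Bcl2 was 1.61-fold (1.33 to 1.96) lower and Bcl2a1b 3.39-fold (2.88 to 4.01) lower, the latter uncertain because its near-identical copies can share reads. Pim2, a survival kinase, was the gene at least 2-fold higher (2.01-fold (1.35 to 3.03)), and Il6ra had 18 UMI.

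The ligands for those receptors were looked up in every other group. Tnfsf13b, which encodes BAFF, was highest in barcodes with C1q macrophage markers, at 49.9 CPM (36.7 to 66.4), and stood at 3.21 CPM in members. Tnfsf13, which encodes APRIL, had 0 UMI in members and at most, from 1 UMI, 2.73 CPM in any group. Cd86, a ligand of CD28, was highest in barcodes with dendritic cell markers (195 CPM (149 to 252)). Cxcl12, the chemokine that holds plasma cells in marrow niches, was highest in the Endothelial class, reaching 381 CPM (369 to 393) in CD45-negative and 293 CPM in CD45-positive barcodes. Il6 rested on few cells: barcodes with neutrophil markers held 54 UMI in 7 of 97 cells, 26 of them in 1 cell, and the 101 UMI of the CD45-negative Ciliated class all lay in 1 barcode. Pigr, the carrier of J chain polymers, was found in epithelium, at 135 CPM (129 to 139.9) in alveolar type 2 and 86.9 CPM in Ciliated barcodes of the CD45-negative library. It was at 4.16 CPM in the Endothelial class.

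Among homing genes the receptor Ccr10 stood out by size. It binds CCL27 and CCL28, the chemokines of epithelia, and had 169 CPM (150.5 to 188) in members against 21.5 CPM (15.7 to 28.7) in the B group, or 7.84-fold (5.74 to 10.9), and 94.5-fold in the clean comparison. Of 19 homing genes it was the 1 at least 2-fold higher, and 6 were at least 2-fold lower (median -0.27). Ccr7, the receptor for lymph nodes, was 10.2-fold (6.52 to 16.8) lower. Cxcr4, the CXCL12 receptor, was 3.14-fold (2.31 to 4.33) lower, at 28.9 CPM. The integrin chains Itgb7 (1.76-fold (1.4 to 2.21)) and Itga4 (1.4-fold (1.18 to 1.67)) pair into the mucosal homing receptor and lay below 2-fold. Ccr9, the gut homing receptor, had 18 UMI and the tissue retention integrin Itgae 12.

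Against the other 6399 immune barcodes, 563 of 10877 genes (5.18%) were at least 2-fold higher in members and 2582 (23.7%) at least 2-fold lower. Outside the selecting genes, and among genes with at least 200 UMI, the highest was Prg2, the eosinophil major basic protein, with 368 CPM (341 to 396) against 29.6 CPM, or 12.4-fold (11.1 to 13.8), and 204-fold over barcodes without plasma transcripts. Next came Fkbp11 (10.7-fold), Jchain (10.4-fold) and Cacna1s (9.92-fold), the pore subunit of the skeletal muscle calcium channel. Eaf2, a partner of ELL factors, was 9.88-fold (8.66 to 11.3) higher, and Vpreb3, a gene of early B cells, 8.74-fold (8.0 to 9.55). The IRE1 and ATF6 list had 17 of 20 genes at least 2-fold higher (median log2 ratio 1.97 against -0.41 for all genes). The T cell, macrophage and NK cell lists, at 9 of 9, 18 of 18 and 6 of 6 genes at least 2-fold lower, describe the comparison cells.

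Members differed widely among themselves. To describe this they were ranked by their J chain share and cut into 3 bands of 145, at 6.33% and 15.4% of UMI. The cut is a range on a continuous scale, with 32 and 36 members within 1 percentage point of the limits, and it was set after the data were seen. Median depths were 4353, 3744 and 4017 UMI in the low, middle and high band, and 4249, 3310 and 3112 UMI without Jchain, while the median UMI of Mzb1 was 20, 22 and 19. Levels below leave Jchain out of the totals, and shares of cells come from cells thinned to 1500 UMI other than Jchain. Of 2289 genes compared, 112 (4.89%) were at least 2-fold higher and 94 (4.11%) at least 2-fold lower in the high than in the low band, and 50 and 204 with Jchain kept in the totals, which lowers every log2 ratio by 0.30.

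Several secreted and membrane proteins, named after their values were seen, were higher in the high band. Prg2 had 8 UMI in the low, 255 in the middle and 424 in the high band, or 72.2-fold (36.3 to 168), and a UMI in 0.69%, 24.8% and 51.7% of cells. Slpi, a secreted inhibitor of serine proteases, had 319, 1855 and 2552 UMI, or 10.9-fold (9.7 to 12.3), and a UMI in 22.1%, 64.1% and 80.0% of cells. The paired membrane proteins Tmem176a and Tmem176b were 10.6-fold (8.33 to 13.6) and 7.12-fold (5.73 to 8.93) higher. In each of these genes the middle band lay between the others, and the low band still held 76 UMI of Tmem176a and 98 of Tmem176b.

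Further genes followed the same order. The serpins Serpina3f and Serpina3g, close relatives whose reads the counting may have split, were 16.7-fold (10.7 to 27.5) and 5.24-fold (3.96 to 7.01) higher in the high band, Vpreb3 4.53-fold (3.69 to 5.6), transferrin (Trf) 4.47-fold (3.05 to 6.68) and Prdx4 4.46-fold (3.67 to 5.45). Ccr10 had 40, 110 and 165 UMI over the bands, or 5.62-fold (3.96 to 8.15). The maturity marker Sdc1 was 4.43-fold (3.23 to 6.17) higher, Xbp1 2.34-fold (2.12 to 2.57) and Cd79a 3.53-fold (3.13 to 4.0). Without the 59 mixed members the ratios were 146-fold for Prg2, 12-fold for Slpi and 5.29-fold for Ccr10. The neutrophil list, whose cells also make Slpi, summed to 1417 CPM in the low, 1425 in the middle and 1576 in the high band.

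**Figure D3:**
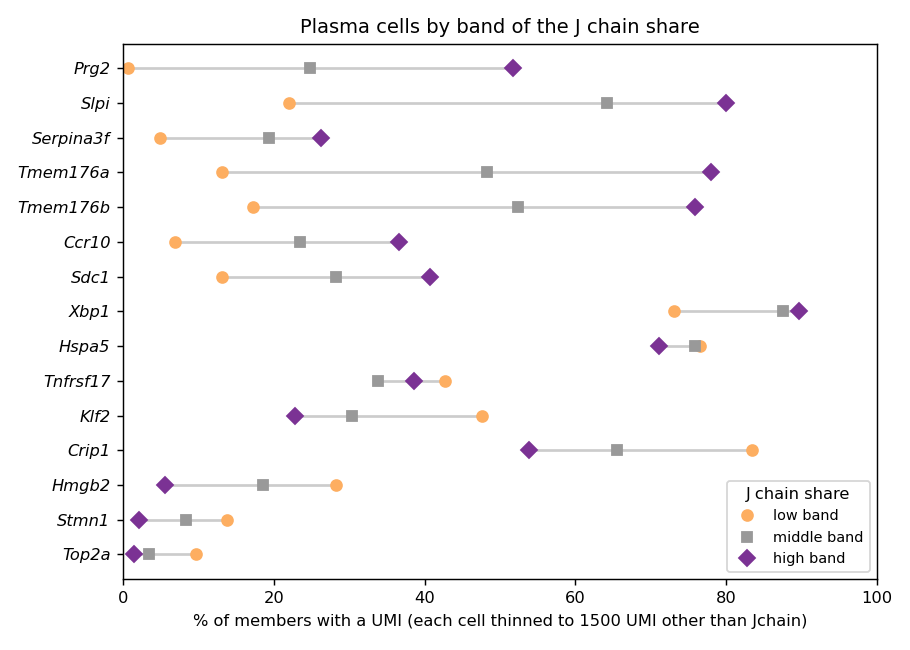
Share of members with a UMI of 15 genes (x axis, %) after thinning to 1500 UMI other than Jchain, for the low (circles), middle (squares) and high (diamonds) band of the J chain share, 145 members each. Prg2 runs from 0.690% to 51.7% and Tmem176a from 13.1% to 77.9%, while Klf2, Crip1 and the cell cycle genes run the other way and Hspa5 stays near 75%.

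Folding genes differed among themselves across the bands. Of 21 genes of the folding and disulfide list, 6 were at least 2-fold higher in the high band (Prdx4, Sil1, Fkbp2, Ero1lb, Txndc5 and Dnajc1) and 1, Prkcsh, at least 2-fold lower, with a median log2 ratio of -0.01. Hspa5 was at 0.864-fold (0.776 to 0.961) in the high over the low band, Hsp90b1 at 0.935-fold (0.875 to 0.999) and Creld2 at 1.02-fold (0.908 to 1.15). The IRE1 and ATF6 list had 2 of 18 genes at least 2-fold higher (Xbp1 and Herpud1, the latter 2.66-fold (2.25 to 3.15)), with a median log2 ratio of 0.12. Tnfrsf17 was at 0.881-fold (0.718 to 1.08), Irf4 at 0.803-fold (0.56 to 1.14) and Prdm1 at 1.28-fold (0.851 to 1.93).

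Klf2, Crip1 and most division genes compared were higher in the low band. The homing and adhesion list as a whole was not: of its 10 genes compared, 1 (Ccr10) was at least 2-fold higher and 1 (Klf2) at least 2-fold lower in the high band, with a median log2 ratio of 0.04. Crip1, a small zinc-binding protein, had 2505 UMI in the low, 820 in the middle and 280 in the high band, or 6.56-fold (5.8 to 7.45) higher in the low band. Klf2, the factor that keeps lymphocytes in circulation, had 498, 148 and 89 UMI, or 4.11-fold (3.27 to 5.2). Lgals3, galectin-3, was 2.64-fold (1.89 to 3.76) higher there and Itgb7 1.68-fold (1.17 to 2.46). S1pr1, the exit receptor that KLF2 drives in T cells, was at 0.987-fold (0.535 to 1.79) in the high over the low band. The low band also had more mixed members (31, 20 and 8 by band) and more alveolar macrophage transcripts (700, 440 and 278 CPM over the list), and without mixed members the low band was 4.9-fold higher for Klf2 and 7.31-fold for Crip1. Of the 23 genes of the G2 and M phase list, 7 had enough UMI over both bands to be compared, mostly from the low band. All 7 were at least 2-fold lower in the high than in the low band (median log2 ratio -3.02). Sparse genes meet the UMI minimum more easily when high in a single band, so the 7 do not stand for the whole list. Of 2 S phase genes compared, 1 was at least 2-fold lower in the high band, and Slbp was at 1.42-fold (0.787 to 2.56). Hmgb2, a chromatin protein of dividing cells, was 8.1-fold (5.33 to 12.9) higher in the low band, and Stmn1, a microtubule regulator, 6.67-fold (3.66 to 13.3). Without the 36 members that carried division transcripts (described below), the log2 ratio of high over low was -1.36 for Hmgb2, -2.27 for Klf2 and -2.91 for Crip1. The median share of ribosomal protein genes, here with Jchain kept in the totals, was 35.7%, 26.3% and 22.8%. A larger J chain share by itself lowers that value.

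Single genes were spread unevenly over members. Prg2 had a UMI in 163 members, at most 62, and the 44 members with most held 71.0% of its UMI. The top 44 held 65.4% for Slpi, whose highest member had 405 UMI, 82.2% for Serpina3f and 70.3% for Ly6c2, against 27.5% for Xbp1 and 28.1% for Derl3. Prg2 and Slpi were found together in 144 members: Slpi had a UMI in 88.3% of members with Prg2 and in 56.2% of those without. For Ccr10 these shares were 50.9% and 28.3%, and for Klf2 47.2% and 57.7%. Members with and without Prg2 had median depths of 4356 and 3830 UMI, and a median J chain share of 17.4% and 6.24%.

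A small part of the members carried transcripts of dividing cells. At least 3 UMI of the G2 and M phase list after thinning to 2000 UMI were found in 36 of 435 members (8.28%, 5.86 to 11.3%), with 28 members at 2 UMI just below. The same limit was met by 9.27% of the B group and 14.4% of the T cell reference. Without thinning 60 members (13.8%) met it. By bands of the J chain share there were 29, 6 and 1 such members. Their median J chain share was 2.46%, against 11.7% in the rest, at median depths of 5636.5 and 3985 UMI.

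Most S phase genes, which did not choose this subset, were higher in it. Of 19 with at least 10 UMI, 16 had a ratio whose counting interval lay above 1 and 3 (Mcm7, Gins2 and E2f1) one that spanned 1, with a median log2 ratio of 2.33. Of all 7944 genes with at least 10 UMI, leaving out the G2 and M phase list and the genes that chose the members, 9.01% had an interval above 1 and the median log2 ratio was 0.13. Rrm2, the regulated subunit of ribonucleotide reductase, had 33 UMI in the 36 against 11 in the other 399 members, or 24.1-fold (11.9 to 52.9). Tyms, which makes thymidylate, was 12.1-fold (5.5 to 27.5) higher and Pcna, the polymerase clamp, 2.89-fold (1.45 to 5.44). Prg2 was at 0.167-fold (0.091 to 0.283) and Slpi at 0.201-fold (0.165 to 0.242) the level of the rest, Xbp1 at 0.668-fold (0.579 to 0.767) and Irf4 at 1.0-fold (0.619 to 1.55). BiP was at 0.915-fold (0.792 to 1.05). The G2 and M phase genes that lead the subset (Ube2c, Birc5, Cdca3, Top2a) chose it and are not a result.

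The 22 members of the CD45-negative library were deeper, at a median of 6068.5 UMI and none under 4870, in a library whose shallowest barcode had 4646 UMI against 2204 in the other. Jchain took 1.32% to 19.3% of their UMI. Xbp1 stood at 2569 CPM and was 1.69-fold (1.51 to 1.88) the level in CD45-positive members, Hspa5 1.86-fold (1.65 to 2.09) and Irf4 1.93-fold (1.29 to 2.81). The B cell gene Ms4a1 had 0 of the 149068 UMI of the CD45-negative members and 44 of the 1868628 UMI of CD45-positive members. The interval of that ratio (0 to 1.1) spanned 1.

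Klf2, Itgb7, Anxa2, Zbtb32 and Itgam were higher in the CD45-negative members. Klf2 had 351 UMI in 22 cells against 735 in 435, or 2355 against 393 CPM, 5.99-fold (5.26 to 6.81). Itgb7 was 6.01-fold (4.66 to 7.72) higher, Anxa2, a membrane-binding annexin, 6.41-fold (5.24 to 7.82), Zbtb32, a repressor of plasma cell lifespan in mice, 6.11-fold (3.33 to 10.8) and Itgam, the integrin chain CD11b, 9.12-fold (5.16 to 15.9). Itgam had a UMI in 11 of the 22 cells and Klf2 in 20. Slpi was lower, with 20 UMI in 22 cells (134 CPM) against 2529 CPM, or 18.9-fold.

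A further comparison kept to J chain shares below the lower limit of the bands. Shares were not matched further, and the low band kept its 31 mixed and 29 cycling members. Of the 22, 12 lay below that limit, 8 between and 2 at or above the upper limit. Set against the low band of CD45-positive members only, with Jchain out of the totals, the 12 still had 3.19-fold (2.7 to 3.76) more Klf2, 4.16-fold (2.93 to 5.85) more Itgb7, 4.0-fold (3.15 to 5.06) more Anxa2 and 7.42-fold (3.81 to 14.4) more Itgam. Tnfrsf17 was 2.69-fold (2.08 to 3.45) higher in them, but it is a selecting gene and the libraries differ in depth, so that value is not a result. Slpi had 1 UMI in the 12 cells against 319 in the 145, a ratio of 0.0244 (0.000616 to 0.137). Library and fraction cannot be told apart here.

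**Figure D4:**
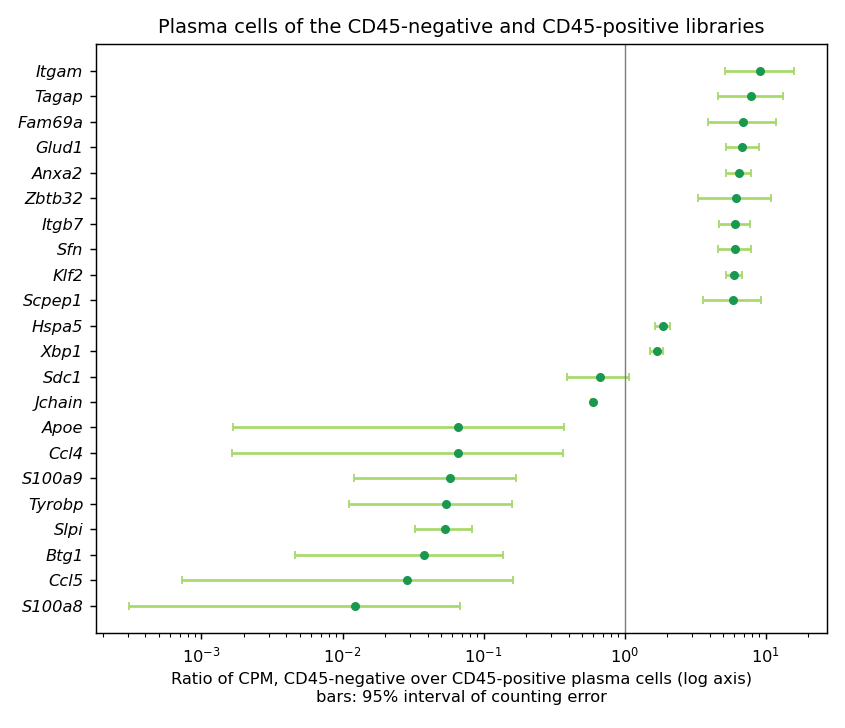
Ratio of summed CPM (x axis, log scale) of the 22 CD45-negative over the 435 CD45-positive plasma cells for named genes, with 95% intervals of counting error. Itgam to Scpep1 lie above 5-fold. Slpi, the myeloid transcripts S100a8, S100a9 and Tyrobp, and also Ccl5, Btg1, Ccl4 and Apoe lie below 0.1.

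Myeloid transcripts were nearly absent from the CD45-negative members. S100a8, a calcium-binding protein of neutrophils, had 1 UMI there and 1031 in CD45-positive members, S100a9 3 and 647, and Il1b 0 and 622. The T cell reference of the CD45-positive library, whose cells do not make them, held the neutrophil list at 1872 CPM, above the 1301 CPM in members. The part of free RNA in these ratios was not tested.

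Cytokine transcripts were few in members. Of 9 genes of the cytokine and regulatory list compared, 0 were at least 2-fold higher than in the B group and 4 were at least 2-fold lower, Tgfb1, Lgals3, Ccl3 and Ccl4. In the clean comparison 0 of 9 were at least 2-fold higher and 3 at least 2-fold lower. The part of macrophage transcripts in the B group in these values was not tested. Il10, the cytokine of regulatory plasma cells, had 24 UMI in 17 members (12.8 CPM (8.23 to 19.1)), against 5.61 CPM in the B group and 6.97 CPM in the T cell reference. Csf2 had 0 UMI, Nos2 1, Il12a 1, Il6 2 and Tnf 11. Ebi3, a subunit of IL-35, had 14 UMI, at 0.458-fold the level of the B group. Cd274, which encodes the checkpoint ligand PD-L1, was at 1.09-fold (0.831 to 1.44), and Lag3 had 12 UMI.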

How the data were processed

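Counts of unique molecular identifiers (UMI) per gene and barcode, from 2 libraries of 98 bp reads, were deposited by the authors as 1 table of 17790 genes and 15389 barcodes with their class names. They were made with Cell Ranger 1.1.0 on mm10, per the submitters' processing notes. The sources used here do not state how genes and barcodes were filtered. Per the series' design text, each channel took 6000 cells, fewer than the barcodes of the CD45-positive library. The sums per barcode equalled the deposited totals in all 15389 barcodes.

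From these counts, UMI were summed over the cells of a group and divided by the group's total (CPM, per 1000000). A gene was compared with at least 50 UMI over both groups and counted at a ratio of 2 or more, with no test, since each fraction is 1 library. A group at 0 UMI was set to a floor of 3 counts. Named genes were those of the lists, the 15 highest and 15 lowest ratios over the B group and the 10 highest over other immune barcodes (at least 200 UMI), and the 10 highest and 10 lowest between subsets of members (at least 50 UMI). Genes of the J chain bands, chosen by their values, were named after they were seen. No doublets were removed. A gene of the set that chose the B group is not reported here. The members and lists were chosen with earlier results of these data known.

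Tables were read with pandas 2.3.3, intervals came from scipy 1.17.1 and thinning from numpy 2.4.6, under Python 3.11.15, with figures by matplotlib 3.10.9. The ratio intervals were tested on simulated counts, and thinning was checked on the members' own counts. Alternatives covered the member rule, the B group, thinning, low counts, mixed and deep barcodes and the cycling limit.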

Additional observations from a re-analysis of the deposited data

Results flagged for a closer look

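The plasma cell thresholds were also met outside the deposited Immune class, in barcodes that enter no comparison above. In the CD45-positive library 40 of the 3994 barcodes of other classes met them, or 1.0% (0.716 to 1.36%), above the 0.0751% that a count of 0 would allow. Of these, 28 were among 2172 Endothelial barcodes and 9 among 1324 alveolar type 2 barcodes. Their median depth was 5686.5 UMI and their median J chain share 6.32%, against 3864 UMI and 0.049% over those classes. In the CD45-negative library 2 of 3849 barcodes of other classes met the thresholds (0.052%). Whether these are 2 cells in 1 droplet was not tested.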

How the results depend on the processing

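No paired analysis was possible because there was 1 library per group, and leaving out a replicate was not possible for the same reason. The plasma cell share of immune barcodes was 2.84% with the stricter rule, 7.89% with the looser rule, 5.06% without mixed members, 3.76% with 0 Cd3 UMI and 4.83% without members holding neutrophil transcripts. Over the B group, 805 genes were at least 2-fold higher and 1731 lower at a minimum of 10 UMI, and 213 and 205 at 200 UMI. Over other immune barcodes, 1427 were higher at 10 UMI, and 366 were higher and 1698 lower at 200 UMI. These minimums change how many genes are compared. The cycling share was 14.7% at a limit of 2 UMI and 13.8% without thinning. Between the J chain bands, 50 genes were higher and 204 lower with Jchain kept in the totals. The alternatives chosen after seeing the data were the neutrophil transcripts, the clean comparison cells, the totals without Jchain, the band settings and further thinning draws. Of the other summary values 62 moved by less than 1.5 times or their counting interval. Of single-gene values and list medians together, 652 stayed within their limit and 177 moved past it, with no called value changing sign. That limit was the counting interval for genes over the B group. For list medians it was the spread over the list's genes, and for genes of the bands a fixed log2 shift. Depth limits what is said of sparse genes such as Prdm1, Irf4 and Il10.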

Other observations

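Some genes outside the secretory lists stood at levels that a reader of these cells may want to look at again. Cacna1s, the pore subunit of the muscle calcium channel, had 249 CPM (227 to 273) in plasma cells, 57.1 CPM in the B group and 8.38 CPM in the T cell reference, and after thinning a UMI in 35.2% of plasma cells and 1.62% of the reference. Myl4, a myosin light chain of the atrium, had 89.9 CPM (76.8 to 105) in plasma cells and 3.58 CPM in the reference. Epcam, an adhesion molecule of epithelia, had 151 UMI in plasma cells and was 2.11-fold (1.6 to 2.79) the level in the B group, while the surfactant gene Sftpc was at 1.02-fold (0.977 to 1.07). Bst2, a membrane protein also known from plasmacytoid dendritic cells, was 2.98-fold (2.67 to 3.32) higher, with Siglech at 2 UMI.

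Nutrient and degradation lists were near the B group. Of 11 genes of amino acid transport and mTOR 2 were at least 2-fold higher and 2 at least 2-fold lower (median log2 ratio 0.25), with the transporter Slc7a5 at 3.07-fold (1.96 to 4.92). Of 14 autophagy and lysosome genes 2 were at least 2-fold higher (median 0.18): Map1lc3b (2.05-fold (1.87 to 2.24)), the autophagosome protein LC3B, and Wipi2 (2.26-fold (1.54 to 3.36)). Among 13 immediate early genes, which rise with tissue dissociation, 0 were at least 2-fold higher and 1, Atf3, was at least 2-fold lower.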
